A study of Rattus norvegicus with 12 samples.

Results

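The 9 infarcted rat hearts of this series, 3 each from the HF, HFE and BAIBA groups, were compared with the 3 Sham hearts to look for changes in gene expression shared by the infarcted groups whatever the intervention. The 9 members were chosen by the group in the sample labels, and they were 9 of 12 samples in all. Male Sprague-Dawley rats aged 8 weeks at surgery had the left anterior descending coronary artery ligated, or, in Sham, only threaded. The infarcted rats were put into groups by ejection fraction 4 weeks later. HF rats were then kept sedentary, HFE rats ran on a treadmill (60 min on 5 days of each week) and BAIBA rats received β-aminoisobutyric acid, a small molecule that muscle releases during exercise, by gavage at 75 mg/kg daily. Both interventions lasted 8 weeks, and hearts were collected 12 weeks after surgery. According to the methods, water by gavage was given to the Sham and HF rats of the BAIBA experiment, whereas a supplementary scheme names Sham and HF rats as treated with BAIBA, and which rats were sequenced from that experiment was not settled by the sources used here. RNA came from the anterior left ventricular wall, given for HF and BAIBA as the area bordering the infarct. The place relative to the scar was not given for HFE in the sources used here. Infarct size was not recorded for the sequenced rats in the sources used here, and no group labelled as exercised or BAIBA-treated Sham was analysed here.

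After a coronary artery is closed, the muscle it fed dies and is replaced by a collagen scar laid down by activated fibroblasts, while the surviving muscle works under higher load. Textbook marks of a failing ventricle are higher natriuretic peptides and β-myosin heavy chain, lower α-myosin heavy chain and calcium pump, more matrix, and a turn from fatty acids towards glucose as fuel. In bulk tissue, fewer cells of a type and less RNA per cell cannot be told apart.

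Each library held between 14812541 and 19732588 counts on genes. Correlations of log2 CPM (a gene's counts relative to the total of its library) were 0.953 to 0.973 between an infarcted and a Sham rat and 0.947 to 0.978 between rats of the same group, with medians of 0.964 and 0.968. The first principal component held 23.0% of the variance, and the 3 Sham rats lay within the range of the infarcted rats on it. On the second component (16.2%) Sham 1 and Sham 2, at 20.7 and 19.0, lay beyond every infarcted rat, of which HF 2 was the highest at 16.0, while Sham 3 was at 5.47. Several rats stood apart in lists of marker genes. The summed CPM of 6 lymphocyte genes was 249 in HF 1 and between 17.3 and 53.7 in the other 11 rats, and that of 15 cell cycle genes was 261 in HF 1 against 67.8 to 95.8. BAIBA 1 had 1707 CPM over 17 macrophage genes, where the other rats had 503 to 884, and 124 CPM over 8 epicardial and mesothelial markers against 27.1 to 57.4. HFE 3 had 2296 CPM over 16 immediate early genes against 307 to 729. The cardiomyocyte markers were high in all rats, with 53848 to 55694 CPM in Sham and 46406 to 54818 in the infarcted rats. List medians that rest on these rats are given with and without them, as are Sh2d1a, Col1a1, Col3a1, Postn and Timp1. For other genes with their highest value in one of them, such as Slc16a5, Cd3e and Nr4a1, only the value with all rats is given.

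**Figure D1:**
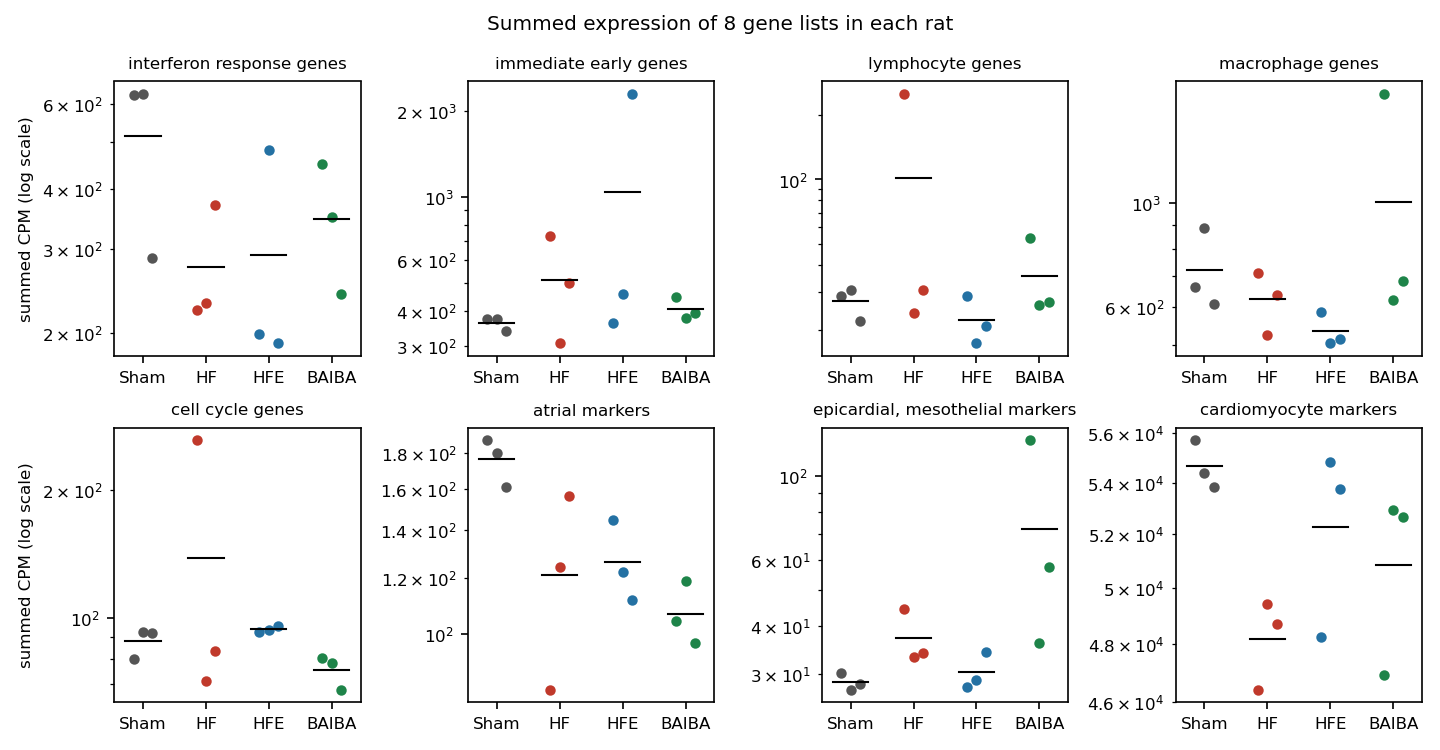
Summed CPM (log axis) of the measured genes of 8 lists, with a point for each rat and a line at the arithmetic mean of each group of 3. HF 1 is high for lymphocyte and cell cycle genes, HFE 3 for immediate early genes and BAIBA 1 for macrophage and mesothelial genes.

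No gene passed the test for a change shared by the infarcted hearts. The contrast of the mean of HF, HFE and BAIBA with Sham, by edgeR's quasi-likelihood test, called 0 of 15617 genes (0%) at a Benjamini-Hochberg adjusted p under 0.05, and the lowest adjusted p was 0.438. An unadjusted p under 0.05 was found for 992 genes (6.35%), of which 443 (2.84%) were higher and 549 (3.52%) were lower in infarcted hearts. DESeq2 called 19 of 17081 genes (0.111%), 5 higher and 14 lower. The median log2 fold change over all genes tested was 0.01 (infarcted minus Sham throughout, so positive values are higher after infarction), and 51.6% of them were positive, the share beside which counts of positive list genes stand. For 12214 genes (78.2%) the whole 95% interval lay within 1 log2 unit on either side of 0. In 84 genes (0.538%) every infarcted rat was above every Sham rat in CPM, and in 75 genes (0.48%) every infarcted rat was below. Sham labels drawn at random would separate a gene in a given direction with a probability of 0.00455. Both shares lie near that level, so a lack of overlap in the genes below is a description. When counts were scaled by library size alone the 84 and 75 genes became 52 and 114, so the balance of higher and lower depended on the scaling.

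Unless a rule is stated, list genes below were chosen as examples after their values were seen. Among genes with a name, leaving out those known only by a locus code, the genes with the smallest p that were lower in infarcted hearts were Npr3, Synj2, Slc2a1, Klhl13 and Ntn4. No member of this ranked list was called by edgeR, and the values are given as a description. The locus LOC686087, also lower, had a p between those of Synj2 and Slc2a1 (log2 fold change -0.55, adjusted p = 0.438). DESeq2 called all 5 lower. Npr3 (ENSRNOG00000019184) encodes the natriuretic peptide clearance receptor, which removes natriuretic peptides from the tissue. Its level was 13.3, 16.8 and 17.2 CPM in the Sham rats, 8.12, 8.89 and 10.4 CPM in HF, 6.26, 4.65 and 2.08 CPM in HFE, and 4.55, 6.15 and 3.97 CPM in BAIBA. All 9 infarcted rats were below the lowest Sham rat, and the HF rats were above all other infarcted rats. The log2 fold change was -1.44 (standard error, SE, 0.23, 95% interval -1.95 to -0.94), or 0.367 of the Sham level. Its adjusted p was 0.438 with edgeR and 0.000214 with DESeq2, and DESeq2 still called it in 11 of the 12 fits that left out a rat. The differences from Sham were -0.79 in HF, -1.86 in HFE and -1.69 in BAIBA, and a test among the infarcted groups gave an unadjusted p of 0.0087 and an adjusted p of 0.328.

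Slc2a1 (ENSRNOG00000007284), the glucose transporter GLUT1 that supplies basal glucose uptake, was at 26.1, 22.8 and 19.7 CPM in Sham and between 13.6 and 17.3 CPM in the infarcted rats, with a median of 15.6 CPM. No infarcted rat reached the Sham range. It was the most even of the leading genes across the interventions, with log2 fold changes of -0.63 in HF, -0.51 in HFE and -0.56 in BAIBA. The mean over the groups was -0.57 (SE 0.10, 95% interval -0.80 to -0.34, adjusted p = 0.438 with edgeR and 0.0125 with DESeq2). Synj2 (ENSRNOG00000017114), a phosphoinositide phosphatase, was at 57.2, 57.0 and 51.8 CPM in Sham and between 35.7 and 50.1 CPM after infarction (median 43.5), again without overlap. The difference was small, at -0.40 on the log2 scale (SE 0.07), and ranged from -0.23 in HFE to -0.59 in BAIBA. The edgeR test among the infarcted groups gave an unadjusted p of 0.00348 for Synj2 (adjusted p = 0.277). DESeq2 called Synj2 in that comparison (adjusted p = 0.0483), so its size was not shared evenly. Ntn4 (ENSRNOG00000005573), a netrin of vascular basement membranes, was at 45.5, 50.4 and 40.5 CPM in Sham and between 21.97 and 37.5 CPM after infarction (median 28.3), and its log2 fold change was -0.66 (SE 0.13). Klhl13 (ENSRNOG00000014029), an adaptor of a ubiquitin ligase, was at 19.1, 24.6 and 21.1 CPM in Sham. Its infarcted rats ran from 11.8 to 19.9 CPM (median 14.5), and 8 of 9 were below all Sham rats. The exception was BAIBA 2, and the difference from Sham was -0.26 in BAIBA against -0.72 in HF and -0.71 in HFE. For Klhl13 the edgeR test among the infarcted groups gave an unadjusted p of 0.00607 (adjusted p = 0.303).

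**Figure D2:**
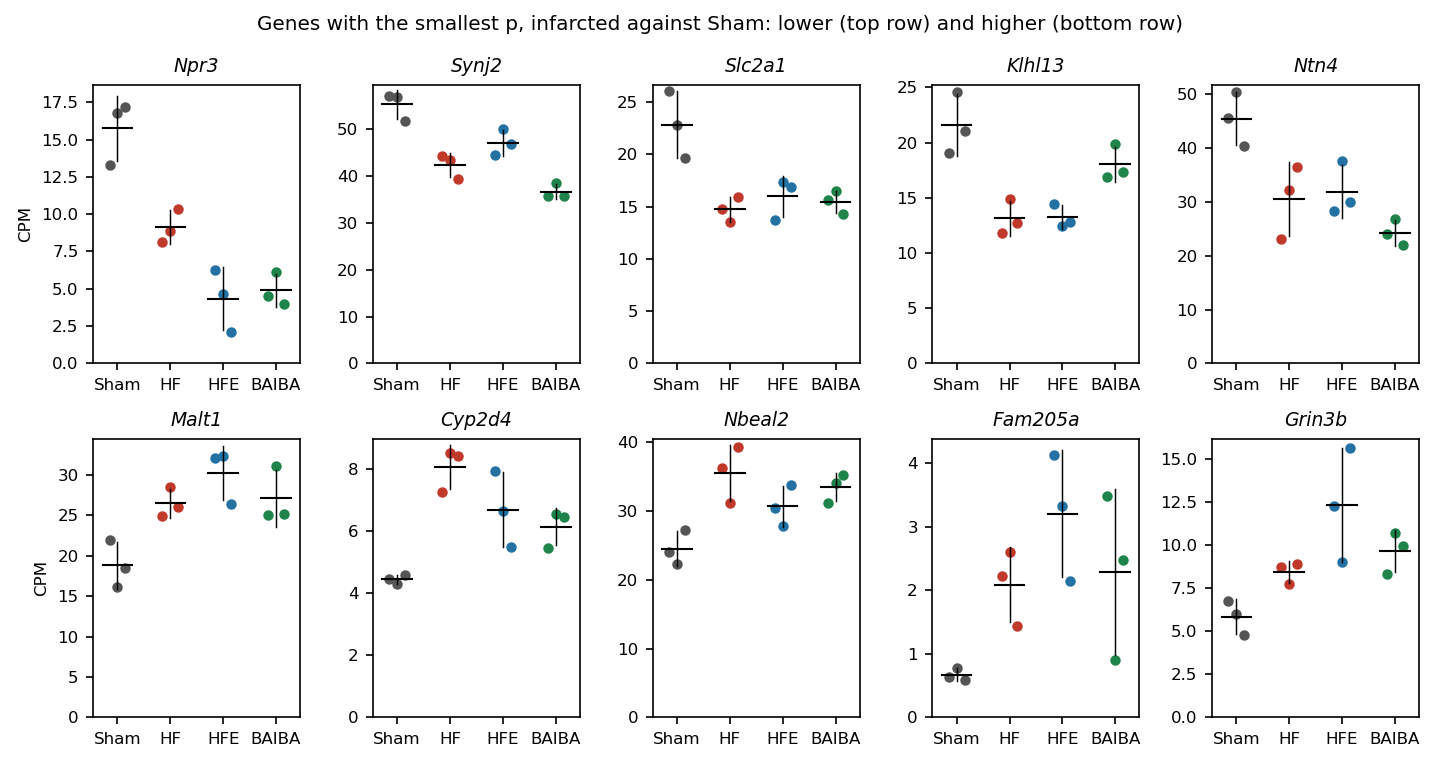
CPM of the 5 lower and 5 higher genes with the smallest p among those with a name, without genes known only by a locus code, with a point for each rat, a horizontal line at the group mean and a vertical line of 1 SD on either side (n = 3 per group). The infarcted rats lie apart from Sham in 9 of the 10 genes, and in Klhl13 BAIBA 2 reaches the Sham range.

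On the higher side the smallest p of all belonged to the locus LOC100911994 (log2 fold change 3.35, adjusted p = 0.438), which was near the Sham level in HF and is described below. Among genes with a name it belonged to Malt1, Cyp2d4, Nbeal2, Fam205a and Grin3b, and no rat overlapped with Sham in any of these 5. Malt1 (ENSRNOG00000017181), a paracaspase of NF-κB signalling in immune cells, was at 21.9, 16.1 and 18.5 CPM in Sham and between 24.9 and 32.3 CPM after infarction (median 26.4). The log2 fold change was 0.56 (SE 0.11, 95% interval 0.31 to 0.82, adjusted p = 0.580 with edgeR and 0.0169 with DESeq2), at 0.49 in HF, 0.68 in HFE and 0.52 in BAIBA. In HF 1 and BAIBA 1, the rats with the highest summed lymphocyte and macrophage genes, Malt1 was at 24.9 and 25.0 CPM. These were the lowest levels after infarction, with BAIBA 3 close by at 25.1 CPM. The part of immune cells in the level of Malt1 was not tested. Cyp2d4 (ENSRNOG00000032261) was at 4.46, 4.30 and 4.57 CPM in Sham and between 5.45 and 8.52 CPM after infarction, a log2 fold change of 0.64 (SE 0.14). It belongs to a family of near-identical cytochrome P450 genes, among which reads could have been split. Nbeal2 (ENSRNOG00000027880), which is needed for platelet granules, was at 24.1, 22.3 and 27.2 CPM in Sham and between 27.8 and 39.3 CPM after infarction, a log2 fold change of 0.44 (SE 0.10). Grin3b (ENSRNOG00000012562), an NMDA receptor subunit, was at 6.78, 5.99 and 4.77 CPM in Sham and between 7.72 and 15.6 CPM after infarction, a log2 fold change of 0.77 (SE 0.17) with its 2 highest values in HFE.

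The largest differences without overlap were in genes at about 1 CPM, where counts are few. Fam205a (ENSRNOG00000042596) had 11, 12 and 9 counts in Sham and 14 to 62 counts after infarction. Its log2 fold change was 1.88 (SE 0.42, 95% interval 0.97 to 2.795, adjusted p = 0.580 with edgeR and 0.0301 with DESeq2). Slc16a5 (ENSRNOG00000023476), of the monocarboxylate transporter family, had 4, 2 and 7 counts in Sham and 9 to 39 after infarction, and its log2 fold change was 1.87 (SE 0.56). Both were higher in each of the infarcted groups, by at least 1.63 for Fam205a and 1.71 for Slc16a5. Sh2d1a (ENSRNOG00000006263), a signalling adaptor of T and NK cells, had a log2 fold change of 1.84 (SE 0.85), but 149 of its counts were in HF 1, the rat with the high lymphocyte genes, while the other infarcted rats had 9 to 21 and the Sham rats 9, 6 and 2. Without HF 1 the log2 fold change of Sh2d1a was 1.13. On the lower side were Ccl1, Smoc1 and Sbspon. Ccl1 (ENSRNOG00000021851), a T cell chemokine, had 20, 20 and 13 counts in Sham and 0 to 12 after infarction, a log2 fold change of -2.50 (SE 0.61). Smoc1 (ENSRNOG00000005998), a SPARC-related protein of basement membranes, had 24, 52 and 17 counts in Sham and 1 to 17 after infarction. Its log2 fold change was -2.43 (SE 0.48, adjusted p = 0.580 with edgeR and 0.0343 with DESeq2). Sbspon (ENSRNOG00000007258) had 16, 21 and 10 counts in Sham and 1 to 9 after infarction, a log2 fold change of -1.73 (SE 0.48).

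The other genes that DESeq2 called are named here after their values were seen. Pfkfb3, which makes the activator of glycolysis fructose 2,6-bisphosphate, was at 85.0, 81.9 and 38.1 CPM in Sham and between 29.3 and 51.9 CPM after infarction, a DESeq2 log2 fold change of -0.88 (adjusted p = 0.0171). Sham 3 lay among the infarcted rats, and without it edgeR called Pfkfb3 too (log2 fold change -1.16, adjusted p = 0.00462). Cdh11, a cadherin of fibroblasts, was at 33.1, 46.6 and 23.1 CPM in Sham and between 11.5 and 26.1 CPM after infarction, a DESeq2 log2 fold change of -0.98 (adjusted p = 0.0216). Inppl1, the phosphatase SHIP2 of insulin signalling, was lower without overlap but by only -0.34 (adjusted p = 0.0156). Clstn2 had a DESeq2 log2 fold change of -1.37 (adjusted p = 0.0368) and Mmrn1, a protein of platelets and endothelium, 1.13 (adjusted p = 0.0445). No DESeq2 call was upheld in all of the 12 fits that left out a rat. Npr3 was called in 11 of these fits, and Synj2, Slc2a1, Klhl13, Ntn4, Pfkfb3 and Cdh11 in 10. Malt1 and Inppl1 were called in 9, Nfs1 in 8, Smoc1 and Fam205a in 7, Mmrn1 in 6 and Clstn2 in 5. For Nfs1 the call rested on Sham 1, at 8.69 CPM, as the other Sham rats were at 0.195 and 0.849 CPM and the infarcted rats between 0.0561 and 1.38 CPM. LOC100911994 was not shared by the infarcted groups at all. It was at 0.229, 0.185 and 0.160 CPM in HF, near the 0 to 0.196 CPM of Sham, and between 1.28 and 3.65 CPM in HFE and BAIBA. The remaining calls were LOC686087, RGD1564899, AC127084.5 and a gene assembled by the authors without a name. How many genes DESeq2 called depended on single Sham rats, with 3 without Sham 1, 3 without Sham 2 and 67 without Sham 3. Leaving out Sham 1 also led edgeR to call Ogn, the matrix proteoglycan osteoglycin, lower (log2 fold change -2.57, adjusted p = 0.0286). It had 74 counts in Sham 1, 726 and 743 in the other Sham rats and 75 to 207 in the infarcted rats.

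The natriuretic system was examined beyond Npr3. Atrial and B-type natriuretic peptides are cut from their precursors by the proteases corin and furin, act through the receptor encoded by Npr1, and are degraded by neprilysin (Mme). Nppa was at 133, 16.9 and 373 CPM in Sham and from 10.4 to 511 CPM after infarction (median 129), so its groups overlapped over almost the whole range. Its log2 fold change was -0.32 with a 95% interval of -2.77 to 2.14. Nppb was at 132, 46.6 and 109 CPM in Sham, 205, 302 and 189 CPM in HF, and 196, 202 and 338 CPM in HFE, which placed all 6 of these infarcted rats above Sham. In BAIBA it was at 109, 36.1 and 83.0 CPM, within or below the Sham range. The mean log2 fold change of Nppb over the infarcted groups was 0.76 (SE 0.39, 95% interval -0.11 to 1.63, adjusted p = 0.816), and it did not describe the BAIBA rats. The test among the infarcted groups gave an unadjusted p of 0.0106 for Nppb, with an adjusted p of 0.351.

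Among the 13 tested genes of the renin-angiotensin, endothelin and natriuretic processing list, 0 were called by edgeR. An unadjusted p under 0.05 was found for 4, where 6.35% of all genes tested had one. Corin was at 75.1, 108 and 56.3 CPM in Sham and from 17.6 to 73.5 CPM after infarction (median 37.0), and 8 of 9 infarcted rats were below all Sham rats. Its log2 fold change was -0.99 (SE 0.27, 95% interval -1.60 to -0.39, adjusted p = 0.740), with -0.57 in HF, -1.44 in HFE and -0.96 in BAIBA. Npr1 was at 35.2, 41.3 and 40.1 CPM in Sham and from 38.8 to 61.3 CPM after infarction, a log2 difference of 0.31 (SE 0.12, adjusted p = 0.757). Mme was above all Sham rats (0.811, 0.781 and 0.914 CPM) in the 6 rats of HF and BAIBA, at 1.17 to 2.58 CPM, but HFE rats were at 0.800 to 0.946 CPM. Furin had a log2 fold change of -0.15 and Npr2, the receptor for the C-type peptide, -0.05. The list's median was 0.07, beside 0.01 for all genes tested.

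**Figure D3:**
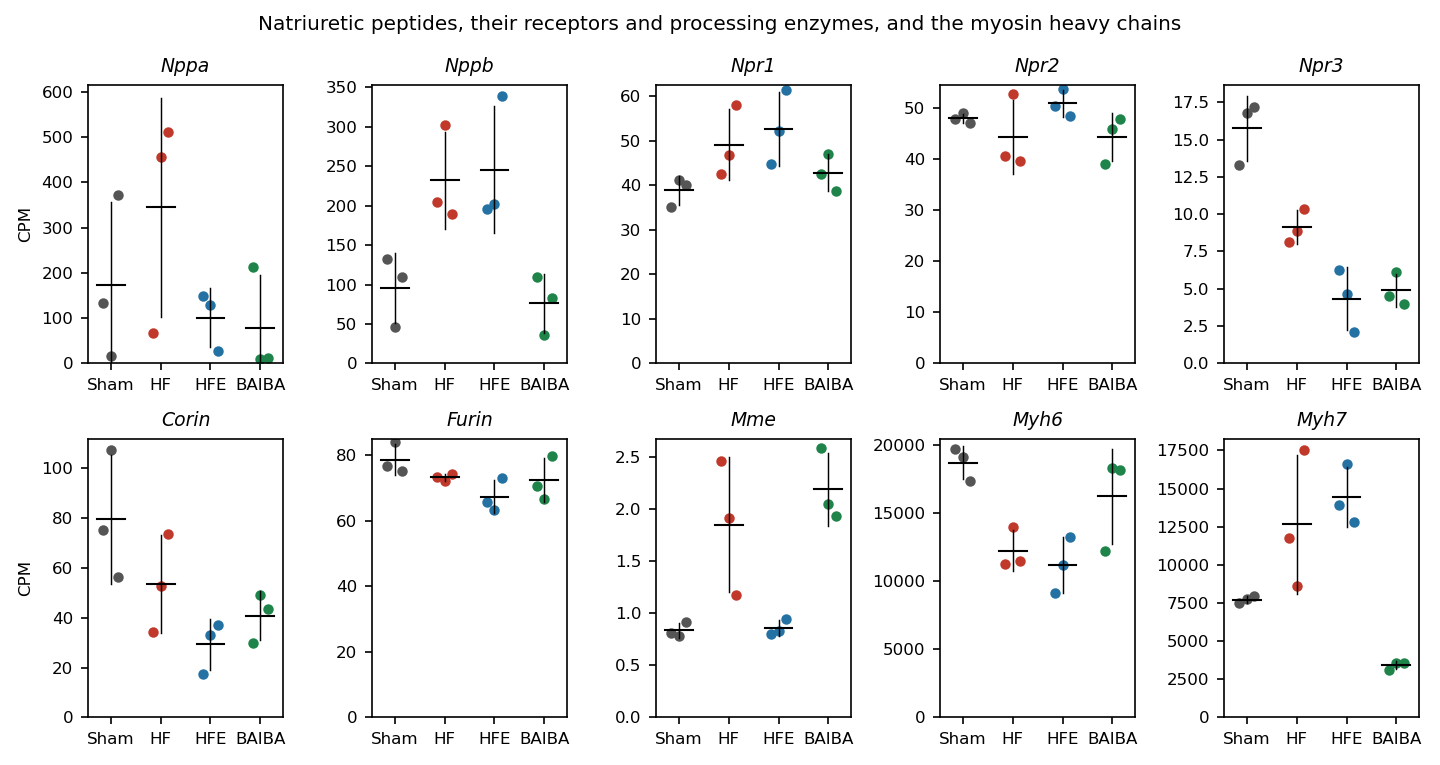
CPM of natriuretic peptides, their receptors and processing enzymes, and of the myosin heavy chain genes Myh6 and Myh7, drawn as in the plot of the leading genes. Npr3 separates all infarcted rats from Sham, whereas Nppb and Myh7 are above Sham in HF and HFE and not in BAIBA.

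Of the contractile and calcium genes, Myh6, the α-myosin heavy chain of the adult rodent ventricle, had the smallest p. It was at 19679, 19068 and 17323 CPM in Sham, from 11218 to 13963 CPM in HF and from 9135 to 13251 CPM in HFE. The BAIBA rats were at 12205, 18310 and 18122 CPM, so that 2 of them lay within the Sham range and 7 of 9 infarcted rats below it. For Myh6 the log2 fold change was -0.52 (SE 0.14, 95% interval -0.81 to -0.22, adjusted p = 0.715), and the two-sided exact permutation test over the 220 assignments of 3 of the 12 rats gave p = 0.0318. Atp2a2, the calcium pump SERCA2 that refills the sarcoplasmic reticulum, was at 9342, 9534 and 9445 CPM in Sham and from 7379 to 9536 CPM after infarction (median 8137). In 8 of 9 infarcted rats it was below all Sham rats, by a small amount (log2 fold change -0.19, SE 0.08, 95% interval -0.37 to -0.02, adjusted p = 0.779, exact permutation p = 0.05). The test among the infarcted groups gave an unadjusted p of 0.0204 for Myh6 and 0.518 for Atp2a2. Of the 12 tested genes of this list none was called, and the median was -0.09. At an unadjusted p under 0.05, 3 were lower, where 3.52% of all genes tested were lower. The third was the calcium channel gene Cacna1c (log2 fold change -0.18). All 12 had intervals within 1 log2 unit of 0.

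The fetal and strain genes, which mark a loaded ventricle, gave no common direction. Of 10 tested, 0 were called, 0 had an unadjusted p under 0.05, 5 were positive, and the median was 0.23 in HF, 0.10 in HFE and -0.35 in BAIBA. Ankrd1, a strain-responsive nuclear and sarcomeric protein, was at 3589, 3293 and 5108 CPM in Sham and from 3481 to 5533 CPM after infarction, a log2 fold change of 0.25 with an interval of -0.07 to 0.58. Acta1, the skeletal actin re-expressed in hypertrophy, was at 429, 480 and 881 CPM in Sham and from 92.3 to 706 CPM after infarction, a log2 fold change of -0.30 (interval -1.22 to 0.61).

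Myh7, the slow β-myosin heavy chain, was the gene in which the infarcted groups themselves differed. It was at 7474, 7755 and 7935 CPM in Sham. HF rats were at 11746, 8626 and 17555 CPM and HFE rats at 13936, 16625 and 12794 CPM, all above Sham, while BAIBA rats were at 3114, 3591 and 3546 CPM, all below. The differences from Sham were 0.71, 0.90 and -1.18, and their mean of 0.15 (interval -0.22 to 0.51) described none of the groups. Myh6 and Myh7 share long stretches of near-identical coding sequence, and how reads that match both were counted was not given in the sources used here. Among the infarcted groups, edgeR called 1 of 15617 genes (0.0064%), Myh7 (adjusted p = 0.0263), with 1633 genes (10.5%) at an unadjusted p under 0.05. DESeq2 called 295. The call of Myh7 was lost without HFE 1, without HFE 3 and without BAIBA 1, when edgeR called 0 genes. The next by p with a symbol were Bcl6b, a transcriptional repressor, at 84.3 to 93.2 CPM in HFE, 30.1 to 34.5 CPM in BAIBA and 31.9 to 54.0 CPM in Sham (adjusted p = 0.109), and Slc35c2, at 35.9 to 57.0 CPM in HFE, 14.2 to 21.7 CPM in HF and 32.2 to 37.8 CPM in Sham (adjusted p = 0.138). The 2 other genes of the first 5 had no name.

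**Figure D4:**
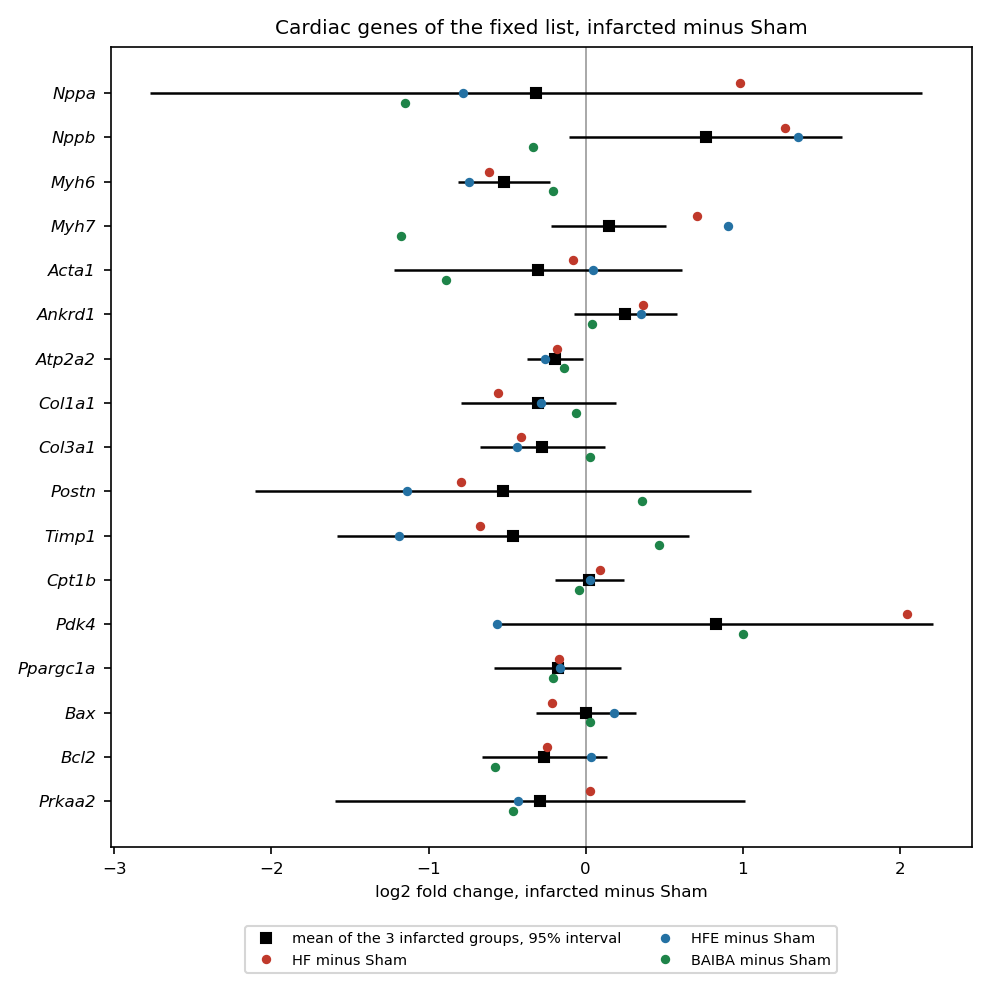
Log2 fold change, infarcted minus Sham, of 17 cardiac genes of a fixed list. Black squares and bars give the mean over the infarcted groups with its 95% interval, and coloured points give each group against the same 3 Sham rats. The intervals of Myh6 and Atp2a2 lie below 0, and those of the other 15 genes include 0.

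No matrix gene was called in these samples, which for HF and BAIBA were given as bordering the infarct. Of 26 matrix genes tested, 0 were called, 17 had a positive log2 fold change, and the median was 0.09. Only 13 had intervals within 1 log2 unit of 0, so a larger difference was not excluded for the others. Col1a1, the main fibrillar collagen chain, was at 165, 177 and 140 CPM in Sham, 104 to 115 CPM in HF, 124 to 144 CPM in HFE, and 237, 83.5 and 142 CPM in BAIBA. This gave a log2 fold change of -0.30 with an interval of -0.79 to 0.19. Col3a1 was at 591, 633 and 528 CPM in Sham and from 376 to 836 CPM after infarction (median 426), with a log2 fold change of -0.27 (interval -0.67 to 0.13). Both collagens were highest in BAIBA 1, the rat with the high macrophage and mesothelial genes, and without that rat 11 of the 26 matrix genes were positive and the median was -0.06. Without it Col1a1 was at -0.44 and Col3a1 at -0.37 on the log2 scale. Tnc, tenascin-C, had a log2 fold change of -1.36 (interval -2.67 to -0.05) and was the only matrix gene with an unadjusted p under 0.05.

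The 18 tested genes of the activated fibroblast list had a median of -0.03, with 7 positive and none at an unadjusted p under 0.05. Of these, 10 had intervals within 1 log2 unit of 0. Without BAIBA 1 the median was -0.17, with 3 positive, and 1 gene was lower at an unadjusted p under 0.05. Postn, periostin, the classical mark of activated scar fibroblasts, was at 18.1, 12.9 and 10.8 CPM in Sham and from 2.50 to 40.5 CPM after infarction (median 6.604). The rat with 40.5 CPM was BAIBA 1, and 6 of the infarcted rats were below all Sham rats. Postn had a log2 fold change of -0.52 with a wide interval of -2.10 to 1.06, and -1.001 without BAIBA 1. Timp1, an inhibitor of matrix proteases, was at 4.87, 12.9 and 5.68 CPM in Sham and from 2.64 to 22.9 CPM after infarction, with its highest value again in BAIBA 1 and a log2 fold change of -0.46 (interval -1.58 to 0.66), or -0.85 without that rat.

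List medians of energy metabolism genes stayed close to the Sham level, with a wider spread among the fatty acid oxidation genes. The 27 respiratory chain genes tested had a median of -0.0016 and a range of -0.42 to 0.09, with 25 intervals within 1 log2 unit of 0 and none at an unadjusted p under 0.05. The 13 genes of the PGC-1 and citric acid cycle list had a median of -0.06, and all their intervals lay within 1 log2 unit. Ppargc1a, the coactivator that drives mitochondrial biogenesis, was at 35.6, 20.6 and 30.5 CPM in Sham and from 17.1 to 30.6 CPM after infarction (log2 fold change -0.18, interval -0.58 to 0.22). The 28 fatty acid oxidation genes had a median of 0.04 and a range of -0.59 to 1.78, with 24 intervals within 1 log2 unit of 0. Of these 28 genes, 0 were called, and 3 were higher at an unadjusted p under 0.05 and none lower. Over all genes tested 2.84% were higher at that p and 3.52% lower. Cpt1b, the muscle gatekeeper of mitochondrial fatty acid entry, was at 446, 462 and 491 CPM in Sham and from 407 to 569 CPM after infarction (median 462), a log2 fold change of 0.02 with an interval of -0.20 to 0.24. Decr1, which processes unsaturated fatty acids, was at 100, 109 and 101 CPM in Sham and from 109 to 139 CPM after infarction, above all Sham rats in 8 of 9. Its log2 fold change was 0.23 (interval 0.06 to 0.40, adjusted p = 0.755), at 0.20 in HF, 0.18 in HFE and 0.30 in BAIBA. The other 2 were Acot2, at 0.39, and Ucp3, a mitochondrial uncoupling protein, at 1.60 (interval 0.12 to 3.08), with 3.48, 1.30 and 7.64 CPM in Sham and 4.63 to 41.1 CPM after infarction. Pdk4, the kinase that holds back glucose oxidation, ranged from 57.2 to 132 CPM in Sham, from 68.9 to 712 CPM in HF, from 38.2 to 98.03 CPM in HFE and from 109 to 227 CPM in BAIBA. Its log2 fold change of 0.83 had an interval of -0.56 to 2.21.

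On the glucose side, 20 genes of glycolysis and the hypoxia response had a median of -0.03, and all 20 intervals lay within 1 log2 unit. Slc2a1 was the only member without overlap. Hk2, the hexokinase that traps glucose in muscle, was at 172, 144 and 141 CPM in Sham and from 81.5 to 150 CPM after infarction, with 8 of 9 infarcted rats below all Sham rats. Hk2 had a log2 difference of -0.38 (SE 0.11, adjusted p = 0.740), with -0.66 in HF, -0.34 in HFE and -0.13 in BAIBA. Slc2a4, the insulin-sensitive transporter GLUT4, was at -0.22 (interval -0.50 to 0.05). Hif1a had a log2 fold change of -0.23 (interval -0.42 to -0.04), and Vegfa, a hypoxia target and vessel growth factor, 0.19 (interval 0.01 to 0.37). Vegfa was at 1089 to 1187 CPM in HFE, above the 716 to 871 CPM of Sham, and at 776 to 843 CPM in HF, within it.

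Neither apoptosis nor AMPK genes gave a call. Of 12 apoptosis genes tested, 10 were positive and the median was 0.12. Bax, which opens the outer mitochondrial membrane, was at 9.32, 9.50 and 9.21 CPM in Sham and from 6.79 to 11.9 CPM after infarction, a log2 fold change of 0.00 (interval -0.32 to 0.32). All 3 HF rats were below Sham and all 3 HFE rats above. Bcl2, which blocks that opening, was at 6.31, 6.44 and 5.16 CPM in Sham and from 3.26 to 6.75 CPM after infarction, a log2 fold change of -0.26 (interval -0.66 to 0.14). The 10 AMPK genes had a median of -0.05 and none at an unadjusted p under 0.05. Prkaa2, the catalytic α2 subunit of muscle, varied too widely between rats to be informative. It was at 57.3, 9.76 and 43.3 CPM in Sham and from 10.7 to 64.5 CPM after infarction.

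**Figure D5:**
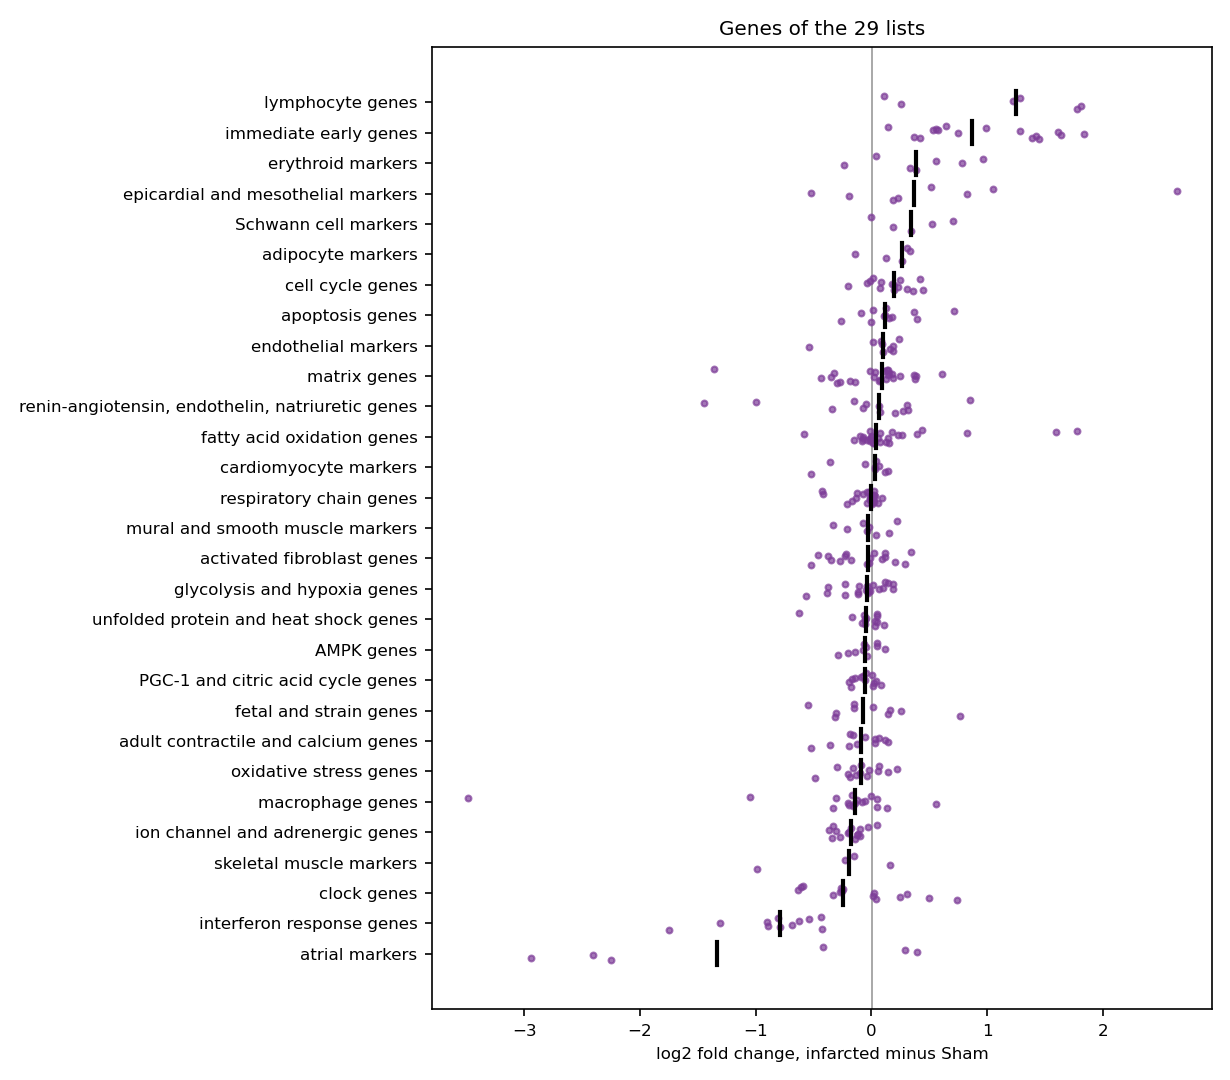
Log2 fold change, infarcted minus Sham, of every tested gene of the 29 lists (points), with the median of each list (black bar) and the median of all genes tested (grey line). Most lists are centred near 0, and the interferon, immediate early, lymphocyte and atrial lists are not.

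The interferon response list lay lower as a whole without a call. All 11 tested genes, products of type I interferon signalling such as Mx1 and Ifit1, had a negative log2 fold change, with a median of -0.79 that was -1.01 in HF, -0.76 in HFE and -0.57 in BAIBA. Gbp2 was at 70.7, 68.9 and 27.1 CPM in Sham and from 23.5 to 42.5 CPM after infarction, a log2 fold change of -0.81 (interval -1.43 to -0.18, adjusted p = 0.755). Stat2, a transcription factor of that pathway, was at 73.3, 74.9 and 41.9 CPM in Sham and from 31.9 to 56.3 CPM after infarction. In both genes Sham 3 lay among the infarcted rats. The summed CPM of the list was 627 and 631 in Sham 1 and Sham 2, 287 in Sham 3, and 190 to 482 in the infarcted rats. Without Sham 3 the median was -1.07 and without Sham 1 it was -0.59. The genes belong to one response, so the 11 are not 11 separate observations.

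The immediate early genes, transcription factors switched on within minutes of a stimulus, were the opposite case. All 16 had a positive log2 fold change and the median was 0.87, but it was 2.12 in HFE, 0.41 in HF and 0.28 in BAIBA. Nr4a1 was at 9.27, 9.05 and 6.33 CPM in Sham, 251 CPM in HFE 3 and from 5.55 to 30.2 CPM in the other infarcted rats. Without HFE 3 the median was 0.35 and 13 of the 16 were positive.

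Immune lists also followed single rats. The 6 lymphocyte genes had a median of 1.25, which was 0.18 without HF 1. Cd3e, a subunit of the T cell receptor complex, was at 35.8 CPM in HF 1, from 0.988 to 3.48 CPM in the other infarcted rats and from 0.927 to 1.18 CPM in Sham. The 15 cell cycle genes had a median of 0.19 with HF 1 and -0.19 without it. The 17 macrophage genes had a median of -0.14, and -0.26 without BAIBA 1. In that list Spp1, osteopontin, had a log2 fold change of -3.49 (interval -5.88 to -1.10), which followed 109 CPM in Sham 2 against 2.72 and 3.72 CPM in the other Sham rats and 0.286 to 26.1 CPM after infarction.

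Atrial markers differed widely between rats. Myl7, the atrial myosin light chain, was at 27.5, 11.4 and 40.3 CPM in Sham. It was at 19.8 CPM in HF 3 and 32.5 CPM in HFE 1, and between 0.301 and 2.35 CPM in the other 7 infarcted rats. Myl4 and Sln, also atrial, had log2 fold changes of -2.25 and -2.41, beside -2.94 for Myl7. Over the 6 atrial markers tested, 3 had an unadjusted p under 0.05, all lower, where 3.52% of all genes tested were lower at that p. That count of 3 was 0 without Sham 1, 3 without Sham 2 and 1 without Sham 3. The markers belong to one tissue, so the 6 are not 6 separate observations. The median was -1.34, but 2 of the 6 were positive, up to 0.39. The summed level was 161 to 187 CPM in Sham and 83.3 to 156 CPM after infarction. Dkk3 was at 122, 150 and 78.3 CPM in Sham and 61.4 to 109 CPM after infarction. Nppa, itself expressed in the atrium, stood at 133, 16.9 and 373 CPM in the Sham rats with 27.5, 11.4 and 40.3 CPM of Myl7. It was at 511 CPM in HF 3 and 148 CPM in HFE 1. In the other 7 infarcted rats, with little Myl7, Nppa ran from 10.4 CPM in BAIBA 2 to 456 CPM in HF 2. The part of atrial expression in the values of Nppa was not tested.

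The remaining lists held 0 calls as well. The median log2 fold change was -0.18 over 15 ion channel and adrenergic genes, of which 14 were negative, and Hcn2 had an unadjusted p under 0.05 (log2 fold change -0.31, interval -0.60 to -0.01). Of the 15 clock genes, with a median of -0.25, the repressor Bhlhe41 was at 12.7, 12.4 and 10.3 CPM in Sham and from 6.85 to 10.4 CPM after infarction. Its log2 fold change was -0.59 (SE 0.14, interval -0.89 to -0.30, adjusted p = 0.580), at -0.49 in HF, -0.58 in HFE and -0.71 in BAIBA, and 8 of 9 infarcted rats were below all Sham rats. The unfolded protein and heat shock genes had a median of -0.05 and the oxidative stress genes -0.09. Among cell type markers the median was 0.03 for cardiomyocytes, 0.10 for endothelium, -0.03 for mural and smooth muscle cells and 0.34 for Schwann cells. It was 0.39 for erythroid cells, 0.26 for adipocytes, -0.19 for skeletal muscle and 0.37 for epicardial and mesothelial cells. Several of these turned sign with a rat left out. The epicardial and mesothelial median ran from -0.56 without HF 1 to 0.54 without Sham 3, and the adipocyte median from -0.89 to 1.76 without the same rats. Without BAIBA 1 the epicardial and mesothelial median was 0.22. The skeletal muscle median ran from -0.31 without Sham 2 to 0.24 without Sham 3, and the mural median from -0.10 to 0.12. For cardiomyocytes the median was -0.01 without Sham 1.

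Each infarcted group was also set against Sham in the same fit, and these comparisons share the 3 Sham rats. None called a gene with edgeR. At an unadjusted p under 0.05 there were 1041 genes (6.67%) in HF, 1289 (8.25%) in HFE and 1136 (7.27%) in BAIBA, and DESeq2 called 22, 50 and 45. A p that misses the threshold with 3 Sham rats does not show that infarcted and Sham hearts were alike, and the 15 genes among the 17 fixed cardiac genes with intervals across 0 are bounded only as far as those intervals go.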

How the data were processed

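RNA of the left ventricle was sequenced from 12 rats, 3 per group. The authors used HISAT2 to align paired-end reads of oligo(dT)-selected RNA, StringTie to assemble additional genes, and featureCounts for counting. Versions, annotation and strand setting were not given in the sources used here. The submitters' processing notes name the mouse build mm9, although the gene identifiers are rat Ensembl, so no coordinates were used. The deposited counts were whole numbers without normalization, and FPKM, scaled by the authors for gene length and depth, was also deposited. The table held 34700 genes, comprising 32623 Ensembl genes and 2077 from the assembly.

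The model was fitted with edgeR 4.0.16 in R 4.3.3 (TMM, filterByExpr, robust quasi-likelihood fit of 4 group means on 12 rats, no covariate). The contrast was the mean of HF, HFE and BAIBA minus Sham, and an F test compared the infarcted groups. Genes were called at a Benjamini-Hochberg adjusted p under 0.05, and DEGs also needed an absolute log2 fold change over 1. CPM used TMM factors. Exact permutation tests used log2(CPM + 0.1) over 220 assignments, with 0.00455 the smallest p. Principal components used the 500 most variable genes. The procedure was tested on simulated data. Depth was 14812541 to 19732588 counts per rat, and replicate libraries of a group differed by more than sampling noise (chi-square over its degrees of freedom 9.36 to 26.1). Replicates are labelled as separate rats.

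Named genes were the 5 per direction with the smallest p (none was called) among genes with a symbol other than a locus code such as LOC or RGD, 17 fixed cardiac genes, the 5 with the smallest p among infarcted groups, and the 3 largest non-overlapping differences per direction. Other list genes, and genes called only by DESeq2, were named after their values were seen. Members, rules and the 29 lists (373 of 408 genes tested) were chosen with earlier results of these data known. Alternatives were DESeq2 1.42.0, RLE or library-size scaling, other filters, the replicate block, a fit of 9 against 3, leaving out each group or rat, fits on pairs of groups, and limma 3.58.1 on log2(FPKM + 1) and log2(FPKM + 0.1) for mean FPKM of at least 0.1.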

Additional observations from a re-analysis of the deposited data

Results flagged for a closer look

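In the 9 infarcted rats, 4 of 34 named genes had a rat far from the others by Dixon's criterion. Its chance rate of about 1 in 20 holds for separate genes in rats of a single group. These rats came from 3 groups, and Col3a1 and Timp1 flag the same rat, so the 4 cannot be set against that rate. Acta1 was at 92.3 CPM in BAIBA 2, Col3a1 at 836 CPM and Timp1 at 22.9 CPM in BAIBA 1, and Sh2d1a at 8.52 CPM in HF 1. Myh7 differed among the infarcted groups by edgeR's quasi-likelihood F test (adjusted p = 0.0263), with every HF and HFE rat above and every BAIBA rat below Sham. Bax was above Sham in every HFE rat and below it in every HF rat, and the same test gave an adjusted p of 0.583.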

How the results depend on the processing

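The 0 genes called by edgeR became 19 with DESeq2 (9 of them DEGs) and 2 with limma on FPKM at either pseudocount (both DEGs), Mir483 and Mir103a2, which had 1 to 3 counts in each Sham rat and 0 in the infarcted rats. It stayed 0 with RLE or library-size scaling, either filter, 9 rats against 3, and without any group. At an unadjusted p it was 992, of which 164 passed the fold limit. Leaving out a rat gave 0 to 1 call (Ogn, Pfkfb3 or an unnamed gene, without Sham 1, Sham 3 or BAIBA 3) and 0 to 1 DEG. The DESeq2 count, tried after seeing the data, was 3 to 67 with a rat left out, and list medians with each rat left out were also added then, with 0 calls in all. Among the infarcted groups the 1 call became 295 with DESeq2, 3 with library size only, 2 with at least 10 counts in every library, 2 with limma on log2(FPKM + 0.1), 1633 at an unadjusted p and 0 to 16 with a rat left out (16 without HF 1). Against Sham, DESeq2 called 22 in HF, 50 in HFE and 45 in BAIBA, a fit on only those groups called 6 in BAIBA, and leave-outs gave 0 to 1, 0 to 1 and 0 to 2. Non-overlapping genes were 52 higher and 114 lower with library size only. Same-numbered rats are different animals whose deviations correlated at -0.079 to 0.224 (mean 0.032), over 0.1 in 5 of 18 pairs. Deviations of different-numbered rats correlated at -0.159 to 0.151 (mean -0.016), over 0.1 in 4 of 36 pairs. The main fit did not pair rats by number, and whether same-numbered rats shared a factor was not tested. With the replicate block edgeR still called 0, with 6 among the infarcted groups and 3 in BAIBA against Sham.

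Of 810 values of named genes under the alternatives, 771 kept direction and side of the threshold, 8 newly passed it and 31 changed sign, for genes near 0 or led by 1 group or rat; the cause was not tested. The log2 fold change of Nppa was 0.0059 in the fit of 9 against 3, 0.10 without BAIBA and -1.26 to 0.90 with a rat left out. Myh7 was at -0.14 without HF and -0.23 without HFE, and Bcl6b at -0.23 without HFE and -0.00091 to 0.34 in leave-outs. Cpt1b was at -0.0028 with library size only, -0.0083 without HF, -0.0049 and -0.0050 with limma and -0.013 to 0.078 in leave-outs. Bax was at -0.016 with library size only, -0.013 with the replicate block, -0.086 without HFE, -0.0086 without BAIBA, -0.030 and -0.037 with limma and -0.048 to 0.058 in leave-outs. Leave-outs moved Acta1 from -0.52 to 0.10, Timp1 from -0.85 to 0.10, Ppargc1a from -0.37 to 0.00035 and Prkaa2 from -0.74 to 0.18.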
